A study of Mus musculus with 2 samples.

Results

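Meg3, Rian and Mirg are 3 maternally expressed long non-coding RNA (lncRNA) genes of the imprinted Dlk1-Dio3 region on mouse chromosome 12. They were read here by 4 array probes, named gi|236460413|ref|NR_027652.1| for Meg3, NR_028261.1 and ri|C130089L09|PX00172P05|1503 for Rian, and MEG9_EU616813.1 for Mirg, for which Meg9 is a synonym. These were 4 of 58654 lncRNA probes (here all probes outside the Agilent catalogue) and 3 of 5405 genes with a probe that could be named. Some of the 5405 genes are annotated as protein-coding. The members were picked by name, but were chosen on earlier differences seen in these same arrays, so every value for them is a description and none was tested. The 2 genotypes were measured on 1 Agilent array each. The control was female breast gland tissue of the miR-34a fl/fl genotype, in which both miR-34a alleles are floxed. The knockout (miR-34a -/-) was female gland tissue from the cross of such mice with mice expressing Cre specifically in the mammary gland. Only the knockout is described as coming from that cross, so loss of miR-34a, Cre and breeding cannot be told apart. The labels name neither the promoter behind Cre nor the age of the animals or whether glands were pooled. The mRNA probes carried catalogue numbers not paired with genes in the sources used here, so the tissue could not be checked against markers of mammary epithelium or fat, and no probe could be matched to Mir34a.

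In the Dlk1-Dio3 region the chromosome inherited from the father expresses the protein-coding genes Dlk1, Rtl1 and Dio3, and the chromosome inherited from the mother expresses the non-coding genes. Meg3 (also called Gtl2) is a nuclear lncRNA whose promoter is part of the differentially methylated control of the region. Rian (Meg8) is the host of a large group of C/D box small nucleolar RNAs, and Mirg (Meg9) is a host of clustered microRNAs. The 3 lie in the same orientation one after another, and transcription through the region from the Meg3 side has been described, so they are often treated as 1 maternal unit. Dlk1 restrains fat cell differentiation, which is why the region is of interest in a gland rich in adipocytes.

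The RefSeq annotation used here (GRCm38.p6) places 2 microRNA genes within Meg3, 3 within Rian and 10 within Mirg, and 11 small nucleolar RNA genes within Rian. Together the 15 microRNA genes give 28 mature microRNAs with 27 different seeds. Mature microRNAs of each host are shown because all 3 transcripts carry such sequences besides the lncRNA itself. Capitals mark the seed, bases 2 to 8. The first microRNA is from Meg3, the next 2 from Rian and the last 3 from Mirg.
miR-770-5p: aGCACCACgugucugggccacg
miR-341-3p: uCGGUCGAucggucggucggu
miR-370-3p: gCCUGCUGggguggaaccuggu
miR-410-3p: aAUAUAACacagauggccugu
miR-453: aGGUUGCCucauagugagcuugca
miR-496a-5p: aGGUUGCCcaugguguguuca
The only seed that 2 of the 28 shared was GGUUGCC, in miR-453 and miR-496a-5p of Mirg. The array probes were designed to the host transcripts, and no value below is a microRNA level.

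The promoter windows of the 3 genes are described from the RefSeq table. The first of the 2 Meg3 starts in the RefSeq table is at the head of the maternal unit, and its promoter (GRCm38.p6 chr12:109540746-109541045, plus strand, 250 bases before the start and 50 from it) is shown with the cAMP response element TGACGTCA, TATAAA and CCAAT in capitals, on either strand.
Meg3: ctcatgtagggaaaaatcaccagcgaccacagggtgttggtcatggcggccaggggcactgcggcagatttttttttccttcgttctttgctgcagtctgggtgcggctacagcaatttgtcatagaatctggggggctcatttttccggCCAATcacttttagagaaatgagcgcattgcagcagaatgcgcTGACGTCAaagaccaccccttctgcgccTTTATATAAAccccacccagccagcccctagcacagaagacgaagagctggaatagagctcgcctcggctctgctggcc
This window held 13 CpG dinucleotides, against a median of 7 over 32851 promoter windows of the same length. At least as many were found in 37.9% of promoter windows. TGACGTCA began at position -57 from the start, CCAAT at -100, and TATAAA at -25, overlapping its own reverse complement at -29. TGACGTCA was in 1.79% of all promoter windows, TATAAA in 13.6% and CCAAT in 37.4%, and all 3 were in 21 windows (0.0639%). The motifs were picked after the sequence had been read. The window of Rian (chr12:109603695-109603994, plus strand) is shown because it is the annotated start of the gene whose 2 probes disagreed.
Rian: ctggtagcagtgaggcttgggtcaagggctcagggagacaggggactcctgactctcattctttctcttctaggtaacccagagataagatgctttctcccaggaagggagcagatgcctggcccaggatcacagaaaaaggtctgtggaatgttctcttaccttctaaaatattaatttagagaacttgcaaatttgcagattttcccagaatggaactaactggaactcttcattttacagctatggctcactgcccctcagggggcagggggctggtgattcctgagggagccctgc
It held 0 CpG and none of these motifs. The second Meg3 start (chr12:109545148-109545447) was much like it, with 1 CpG and none of the motifs, while the Mirg window held 10 CpG and a CCAAT at -184. These are matches of letters, not sites of binding.

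Meg3, the brightest of the 3 genes' probes, differed little between the glands. Its 2 spots had processed signals (background-subtracted intensities, not scaled between arrays) of 649 and 659 in the control and 716 and 697 in the knockout. Both knockout spots were brighter than both control spots, by a small margin. Scaled to the 75th percentile of each array, the Meg3 level was 0.99 ± 0.02 on the log2 scale in the control and 1.55 ± 0.03 in the knockout (SD of 2 spots of 1 array). The knockout minus control difference was 0.56, or 1.47-fold, and the 2 spots gave 0.59 and 0.53 separately. Spot spread covers printing and scanning only. With 1 array per genotype there is no replicate of either condition, and no difference here has an error between animals.

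Rian, the small nucleolar RNA host, gave different results at its 2 probes. At the RefSeq probe NR_028261.1 the processed signal was 142 in the control and 485 in the knockout. This probe had 1 spot per array, so these are its only values. The scaled level was -1.22 in the control and 1.0 in the knockout, a log2 difference of 2.22 or 4.67-fold. At the RIKEN clone probe, also assigned to Rian by its clone name, the 2 spots read 43.4 and 56.1 in the control and 49.7 and 45.3 in the knockout. There the control and knockout spots overlapped before scaling. After scaling its level was -2.74 ± 0.26 in the control and -2.35 ± 0.09 in the knockout (SD of 2 spots), a difference of 0.39 or 1.31-fold. Its 2 spots taken singly differed by 0.65 and 0.14.

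Mirg, the microRNA host, resembled Meg3 and the RIKEN clone probe of Rian in the size of its difference. Its 2 spots read 68.5 and 59.1 in the control and 65.6 and 63.3 in the knockout. Before scaling the knockout spots lay between the control spots. The scaled level was -2.37 ± 0.15 in the control and -1.91 ± 0.04 in the knockout (SD of 2 spots), a difference of 0.47 or 1.38-fold. The spots gave 0.39 and 0.55 when each was compared with the spot at its own position.

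**Figure D1:**
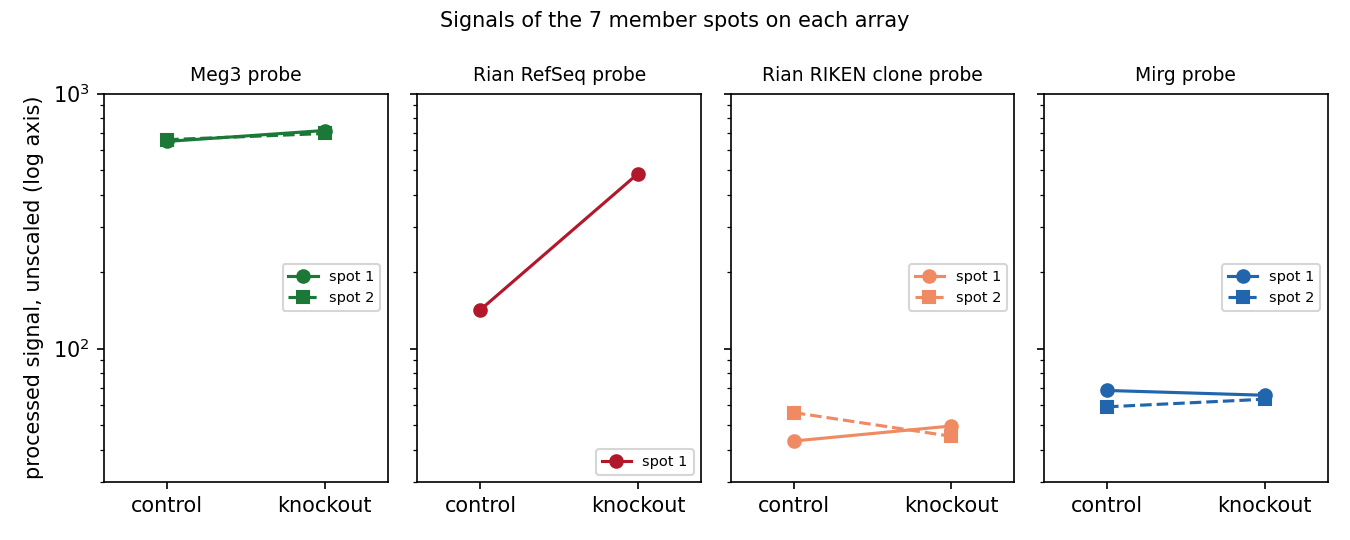
Processed signal of each spot (log axis, intensity before scaling) on the control and the knockout array, with a line joining the same spot position. The single spot of the Rian RefSeq probe went from 142 to 485, while the other 6 spots were nearly level.

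All 7 member spots were well above background on both arrays, and none was saturated or had an outlier mark. Local background was 18 to 21 around them in the control and 19 to 23 in the knockout, against median spot pixels of at least 70. On the whole arrays 77.3% of 175906 non-control spots were well above background in the control and 75.4% in the knockout.

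The size of the difference at Meg3, Mirg and the RIKEN clone probe depended on how the arrays were scaled. The 75th percentile was 8.36 (log2 signal) for the control and 7.92 for the knockout, so that scaling raised every knockout value against the control. Without scaling, a setting added after the data were seen, the log2 differences were 0.11 at Meg3, 0.02 at Mirg and -0.05 at the RIKEN clone probe, while the RefSeq probe of Rian was at 1.78. With 9 E1A spike-in probes, added RNAs of known identity, set equal on both arrays, the differences were 0.20, 0.11, 0.04 and 1.87. The spike-in probes themselves differed from each other with an SD of 0.18. The median over the 38797 lncRNA probes measured on both arrays was 0.10 with percentile scaling, -0.26 with the spike-ins set equal and -0.35 without scaling. Relative to that median Meg3 stood 0.46 higher, Mirg 0.37, the RIKEN clone probe 0.30 and the RefSeq probe 2.13. Shifting a whole array by a constant leaves these distances unchanged. A change in RNA per cell and a change in the number of cells of a type cannot be told apart in such whole-gland samples.

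**Figure D2:**
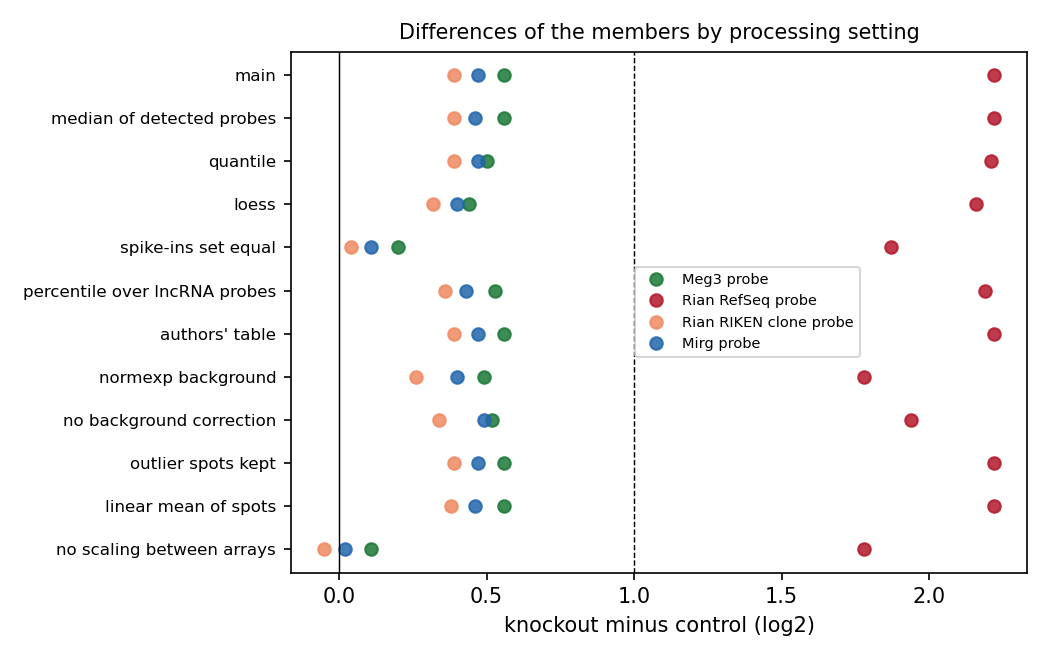
Log2 difference, knockout minus control, of the 4 probes under 12 ways of processing, with a dashed line at 2-fold. The Rian RefSeq probe lay between 1.78 and 2.22 under all of them, and the other 3 probes lay between -0.05 and 0.56. Not all of these ways are independent checks. The authors' table differs from the main values by a constant per array, and no member spot had an outlier mark to restore.

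Set among all lncRNA probes, the RefSeq probe of Rian was near the upper end and the others were not. At least 2-fold higher in the knockout were 1609 of the 38797 measured lncRNA probes, or 4.15%, and 1 of the 4 member probes. A further 1355 were at least 2-fold lower. That split depended on scaling, with 646 higher and 3359 lower when spike-ins were set equal, 1268 and 1653 with a loess curve, and 525 and 4214 without scaling. A difference as large as that of the RefSeq probe was found at 94 lncRNA probes (0.242%), and at 17 of the 6113 whose mean signal lay within 0.5 log2 units of it. For Meg3 the share of lncRNA probes with at least its difference was 15.4%, for Mirg 20.4% and for the RIKEN clone probe 25%. Over all measured lncRNA probes the 25th percentile of differences was -0.23 and the 75th was 0.39. Meg3 and Mirg were above the latter, and the RIKEN clone probe was level with it.

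By signal, Meg3 stood at percentile 92.9 of all lncRNA probes in the control and 95.2 in the knockout. The RefSeq probe of Rian was at percentile 70.1 in the control and 92.5 in the knockout. The RIKEN clone probe was at 47.3 and 52.5, and the Mirg probe at 52.7 and 59.3. These are ranks of probe brightness, which depends on the probe as well as on the RNA, and they do not order the 3 genes by amount.

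**Figure D3:**
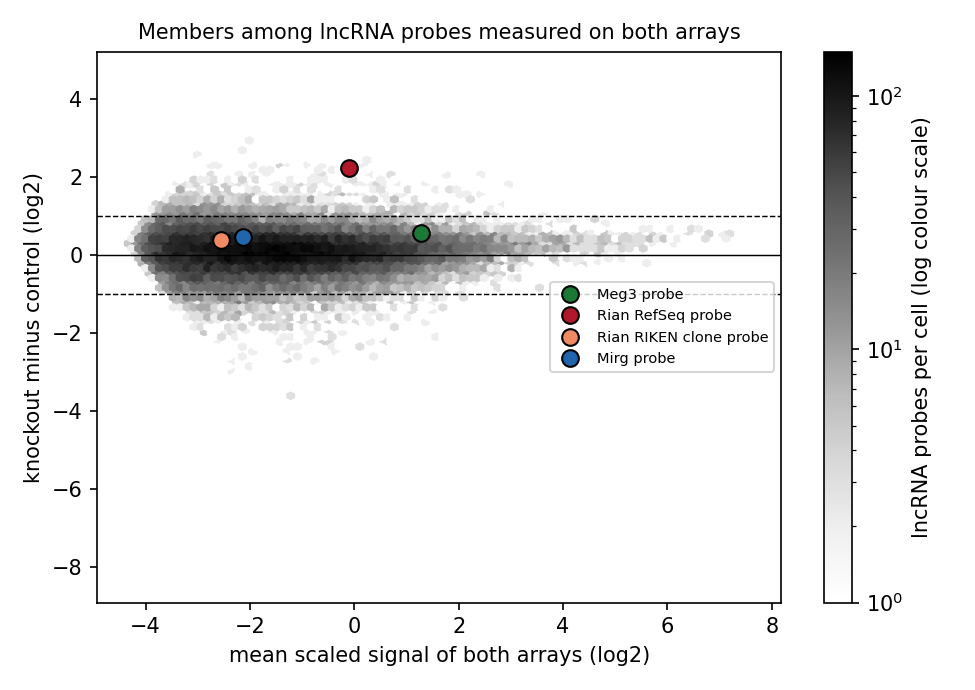
Difference between the arrays (knockout minus control, log2) against the mean scaled signal for 38797 lncRNA probes measured on both arrays, with dashed lines at 2-fold either way. The Rian RefSeq probe, at 2.22, lies above the main cloud, and the Meg3 (0.56), Mirg (0.47) and Rian RIKEN clone (0.39) probes lie within it.

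The 2 Rian probes disagreed by 1.83 log2 units, a 3.55-fold gap between their folds. Among the 155 named genes with several measured probes, protein-coding ones included, the median gap was 0.33 and the 90th percentile 0.96. Rian had the third largest. Of these 155 genes 13 (8.39%) had at least 1 probe at least 2-fold higher, as Rian did, and 1 had all its probes at least 2-fold higher. In 55 of the genes the probes lay on opposite sides of 0, which was not the case for Rian with percentile scaling. Without scaling the Rian probes were at -0.05 and 1.78. The larger gaps were those of E130310I04Rik, 2.06 with probes at -1.69 and 0.37, and 4930570G19Rik, 1.84 with probes from -0.04 to 1.80. In all 3 genes at least 1 probe had a single spot. The fourth largest gap, also 1.83, was in a gene with at least 2 spots for every probe. Both Rian probes are assigned to the gene by name, but the sources used here give neither their sequences nor the exon each reads, and whether they read the same RNA was not tested.

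**Figure D4:**
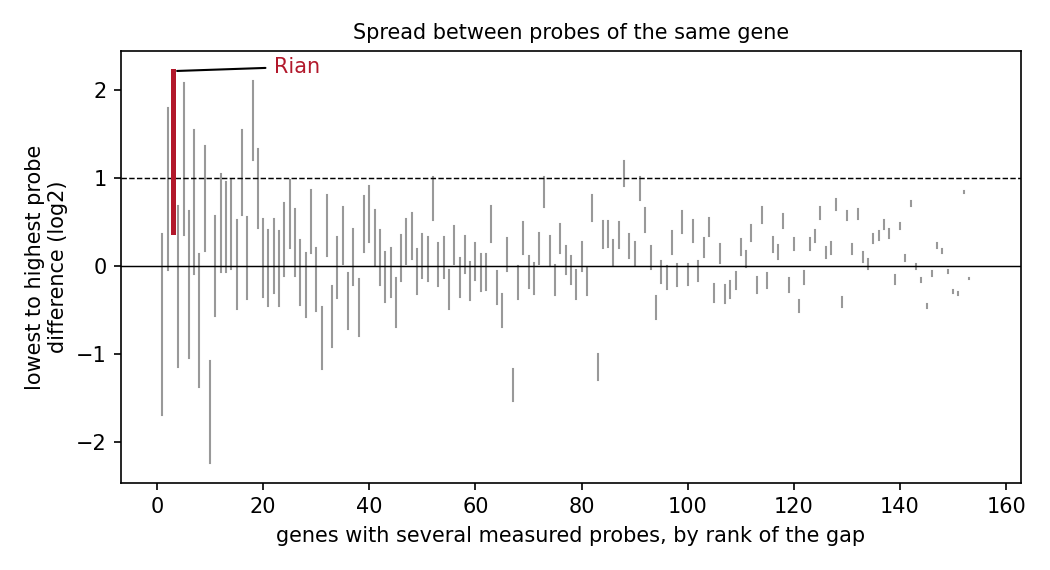
Lowest to highest probe difference (knockout minus control, log2) for each of 155 genes with several measured probes, ordered by the gap. Rian (red) spans 0.39 to 2.22 and has the third largest gap.

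Because the higher Rian value rests on 1 spot per array, the behaviour of single spots was described. In the 24611 measured lncRNA probes with 2 spots free of outlier marks, the differences of the spots lay 0.19 apart at the median and 0.74 at the 95th percentile. Pairs with a marked spot, or one not well above background, were left out beforehand. A gap of at least 1.83 was found in 11 of them (0.0447%). The 1.83 of Rian is between different probes, whereas these gaps are between spots of 1 probe. Among the 3772 within 0.5 log2 units of the signal of the Rian RefSeq probe the largest was 1.33, and among the 5581 as near to the dimmer RIKEN clone probe it was 1.97, with 2 at or beyond 1.83. Of 1558 probes with at least 1 spot at least 2-fold higher, both spots were past 2-fold in 43.2%. Of the 85 with at least 1 spot at or beyond the Rian value of 2.22, the other spot was also at least 2-fold higher in 82. These pairs had passed the same filters, and the Rian RefSeq probe has no second spot to compare. Probes with 1 spot were at least 2-fold higher in 4.58% of 14026 cases, and probes with 2 spots in 3.88%. The error that the scanning software assigns to the Rian signals, 14.5 and 48.6, corresponds to an SD of 0.21 on the log2 difference.

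Values around the member spots on the array were also read. Among 320 measured spots within 10 rows and columns of the Rian RefSeq spot the median difference was -0.05, and 0 reached 2.22, a size found at 0.242% of all measured lncRNA probes. Of the 14 nearest spots 9 were well above background on both arrays, with differences from -0.79 to 1.21, and 1 of these was at least 2-fold higher. Around the other 6 member spots the local medians were 0.05 to 0.15, and between 13.6% and 48.7% of the surrounding spots had a difference at least as large. The highest share was at the second spot of the RIKEN clone probe, whose difference of 0.14 was close to the local median of 0.13. Whether position on the array has a part in any of these differences was not tested.

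Few other genes of the region could be read. Of a list of 17 known genes of the region and its flanks, the 3 members alone had a named probe. Of 103 RefSeq genes from Dlk1 to Dio3, 61 of them microRNA and 19 small nucleolar RNA genes, 7 had a named probe and 6 were measured on both arrays. Besides the members these were 3 predicted lncRNA genes on the Dio3 side of Mirg, a positional set added after the data were seen. Gm34895 was at -2.20 in the control and -1.49 in the knockout, a difference of 0.70. Gm34785 was at -1.11 and -0.85, a difference of 0.26. Gm34667 had 2 measured probes that went opposite ways, by -1.04 and 0.63. By measured probes alone, 5 of the 6 genes were above 0, as were 1660 of 2648 named non-coding genes. Of the 6, 1, Rian, was at least 2-fold higher, against 4.31% of those named genes. The value of Rian in that count is the mean of its 2 probes, a log2 difference of 1.31, which was 0.95 and so under 2-fold with the spike-ins set equal, and 0.86 without scaling. Dlk1, Dio3 and Rtl1 had no named probe.

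Imprinted non-coding genes and X-inactivation RNAs outside the region were too few for a share past 2-fold to be read. Of 31 in the list 10 had a named probe and 8 were measured, with 6 above 0 and a median difference of 0.32, beside 1660 of 2648 above 0 and a median of 0.13 over all named non-coding genes measured. None of the 8 was 2-fold higher or lower, and over all those genes 114 (4.31%) were higher and 75 lower. The largest was Nctc1, a transcript beside H19, at 0.59 (1.51-fold, 1 spot). Airn, the antisense silencer of Igf2r, was at 0.50 and 0.14 at its 2 probes. Kcnq1ot1, the silencing RNA of the Kcnq1 domain, was at 0.10. Ftx, of the X-inactivation centre, was lower at both probes, by -0.42 and -0.21, and Peg13, an imprinted lncRNA, was at -0.40. The Meg3, Mirg and Rian RIKEN clone probes, at 0.56, 0.47 and 0.39, thus lay within the range of these genes, and the Rian RefSeq probe lay above it.

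Among 2785 measured probes of other named non-coding genes, those closest to each member were found by the distance between their pairs of scaled log2 signals, over the 2 arrays. Nearest to the Rian RefSeq probe was A730049H05Rik, at -1.18 and 1.09 (distance 0.089, 1 spot), and then Gm40921, at -1.01 and 1.29 (distance 0.35). Nearest to Meg3 were Gm31630, at 0.98 and 1.48, and Gm33901, at 1.01 and 1.47. For Mirg they were Gm36585 (-2.37 and -1.89) and 9530080O11Rik (-2.36 and -1.93), and for the RIKEN clone probe LOC102641027 (-2.69 and -2.34) and Gm42222 (-2.70 and -2.31). With 2 arrays such likeness means only a similar signal on each.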

How the data were processed

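RNA labelled with Cy3 was hybridised to 1 array per genotype. The deposited intensity values are Agilent Feature Extraction output (version 10.7 in the submitters' processing notes, 11.5.1.1 per the file headers, design build mm9). The authors' deposited table holds log2 values that equal the mean log2 processed signal of a probe's unmarked spots minus 8.40 (control) or 7.95 (knockout) for 100% of 97373 probes, to within 0.0001.

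Control spots and spots with outlier marks (0.893% and 0.430%) were dropped, log2 processed signals averaged over the spots of each probe, and each array's 75th percentile subtracted. A probe was measured when all its spots were well above background on both arrays. A call was a difference of at least 2-fold in size. Neither a test nor a p-value was made. lncRNA probes were all probes outside the Agilent catalogue, with no filter on the type of gene. Of 3174 genes with a measured named probe among them, 2648 were non-coding and the rest protein-coding. Counts, shares and percentiles over lncRNA probes therefore include some probes of protein-coding genes. Names came from the RefSeq table (GRCm38.p6): 4654 probes by accession, 1208 by RIKEN clone and 18 by the name on the array.

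The members, gene lists and settings were chosen with earlier results of these data known. The named genes were fixed by rule: the members, listed genes of the region, listed imprinted genes at least 1.5-fold apart or at either end of the range, the 2 nearest patterns per member and the 3 largest probe gaps; Airn, Kcnq1ot1 and Ftx were added after their values were seen. Alternatives covered scaling, background (normexp with offset 50 in limma 3.58.1, R 4.3.3), outlier marks, spot averaging and size limits. The steps, run in python 3.11.15 (numpy 2.4.6, pandas 2.3.3, statsmodels 0.14.6), were tested on simulated data.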

Additional observations from a re-analysis of the deposited data

How the results depend on the processing

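No paired analysis was possible because each genotype has 1 array. The alternatives kept the direction of all 4 probes except without scaling, a setting added after the data were seen, where the Rian RIKEN clone probe was at -0.05. The authors' table and the keeping of marked spots could hardly move the members, as no member spot was marked. A value is given here where it moved by more than the spot spread (for the 1-spot Rian RefSeq probe, that of 2-spot probes of like signal). Meg3 was at 0.50 with quantile scaling, 0.44 with loess, 0.20 with spike-ins set equal, 0.49 with normexp, 0.52 with no background correction and 0.11 without scaling. The Rian RefSeq probe was at 1.87 with spike-ins set equal, 1.78 with normexp, 1.94 with no background correction and 1.78 without scaling. Its call at 2-fold held in all of them. With the main scaling, at 4.67-fold, it also passed limits of 1.5-fold and 4-fold. In the other settings just named it was under the 4-fold limit, at 3.65-fold, 3.43-fold, 3.82-fold and 3.42-fold in that order. The Rian RIKEN clone probe was at 0.04 and Mirg at 0.11 with spike-ins set equal, and Mirg at 0.02 without scaling. The gap between the Rian probes was 1.52 with normexp. It moved by less than the spot spread with no background correction, to 1.60, and with either RIKEN spot alone, to 1.58 and 2.08. The lncRNA probes at least 2-fold apart numbered 2964, against 972 with normexp, 1363 with no background correction, 4739 without scaling, 9400 at 1.5-fold, 353 at 4-fold and 7515 with dim probes kept. Each signal is 1 array, which limits its precision, and the Rian RefSeq value is 1 spot.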
